A study of Mus musculus with 16 samples.

Results

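The genes described here are the nuclear-encoded subunits of the oxidative phosphorylation system. They were taken by symbol: genes starting with Ndufa, Ndufb, Ndufc, Ndufs or Ndufv for complex I (assembly factors starting with Ndufaf left out), Sdha to Sdhd for complex II, Uqcr for complex III, Cox4 to Cox8 for complex IV and Atp5 for complex V. This gave 80 of the 11713 genes measured, with 37 in complex I, 4 in complex II, 8 in complex III, 14 in complex IV and 17 in complex V. The rule uses symbols only. Together they held 383876 UMIs (unique molecular identifiers, each counting 1 captured RNA molecule), or 2.12% of the total. In the GENCODE annotation all 80 were protein-coding, on 19 chromosomes. The subunits encoded by mitochondrial DNA were not analysed here.

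Oxidative phosphorylation takes place in the inner mitochondrial membrane. Complexes I and II pass electrons from NADH and succinate to ubiquinone, complex III passes them to cytochrome c and complex IV to oxygen, and complex V uses the proton gradient so formed to make ATP. Most subunits are encoded in the nucleus, and a few subunits of complex IV exist as isoforms known from particular tissues such as heart, skeletal muscle or testis. Among blood cells, mature neutrophils are known for relying mainly on glycolysis, and mature red cells lose their mitochondria.

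The cells came from spleens of 9-month-old female BALB/cJ mice with no treatment or engineered allele named in the labels, and were profiled by CITE-seq, which reads RNA and DNA-tagged antibodies in the same droplet. The labels list 16 samples in 4 groups of 4 (RNA and antibody tags for each of Main1 and Main2). The deposited tables separate only Main1 and Main2, so these are the 2 libraries compared throughout; the series speaks of spleens from a pair of mice, but the labels do not say outright that each library is 1 animal. Red blood cells were lysed for 5 minutes before staining with a panel of 30 antibodies, which limits what the erythroid droplets can stand for. The libraries held 3179 and 3918 droplets and 7964712 and 10174799 UMIs, with 1098 to 51405 UMIs per droplet (median 1782), and 14 droplet barcodes occurred in both. Cell classes were set from the antibodies alone, so no gene described here took part in them. The 10 classes held 3275 droplets, from 52 in the CD8 T gate to 1840 in the follicular B gate. Each gate outside the B cells that has a marker list held more of its markers than follicular B droplets did. Summed neutrophil markers were at 389246 and 389693 counts per 1000000 UMIs (CPM) in the neutrophil gate. T markers stood at 6076 and 6032 CPM in the CD4 T gate. Dendritic markers stood at 494 and 797 CPM in the dendritic gate, against 16.0 and 8.49 CPM in follicular B. B markers stood at 8346 and 7522 CPM in marginal zone B, against 8139 and 8308 CPM in follicular B. The erythroid gate went against its label in part: it took droplets called positive for Ter119 or CD71. Of its 70 and 67 droplets, 39 and 37 were called for CD71 alone. Haemoglobin genes gave 0.493% and 0.192% of UMIs in these, against 35.4% and 14.3% where both antigens were called. The CD71 call took in low tag counts: the gate had a median of 4 and 9 CD71 tags, against 18 and 17 in CD71-negative B droplets. A CD71 call in this gate therefore does not stand for high CD71. An additional gate for plasmacytoid dendritic cells, 42 droplets positive for B220 and Ly6C without CD79b, CD3 or Ly6G, was defined after the values had been seen. Its markers Siglech, Bst2 and Ccr9 summed to 6595 and 6662 CPM, against 57.7 and 41.9 CPM in follicular B droplets. Because it was drawn with the values known, its levels and folds are given as a description, with no test.

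Regulatory motifs were looked up in the RefSeq promoter table (GRCm38.p6), which runs from 250 bases before to 50 bases after each gene's start and held 67 of the 80 genes. The searched strings, on both strands, were GCGCATGCG for NRF1, CCGGAAGT for the ETS factor GABPA, TCAAGGTCA for oestrogen-related receptors and AAGATGGC for YY1, factors known to act on many respiratory genes. The NRF1 string was in 8 of the 67 promoters (11.9%) and in 1.95% of the 27025 genes of the table. For YY1 the count was 10 (14.9%, against 3.19% of all genes), for ETS 5 (7.46% against 4.31%) and for oestrogen-related receptors 2 (2.99% against 0.466%). A match is a description of the sequence only. Stretches that lay before the start and outside annotated exons are shown for 3 genes that recur in the results, 5′ to 3′ on the gene's strand, with the motif in capitals.
Atp5g3 (chr2:73911340-73911408, minus strand, oestrogen-related receptor motif in antisense orientation): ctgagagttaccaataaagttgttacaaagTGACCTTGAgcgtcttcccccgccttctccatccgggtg
Uqcr11 (chr10:80406850-80406917, minus strand, ETS motif): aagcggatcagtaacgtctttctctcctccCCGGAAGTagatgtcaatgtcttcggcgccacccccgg
Atp5l (chr9:44920945-44920992, minus strand, NRF1 motif in antisense orientation): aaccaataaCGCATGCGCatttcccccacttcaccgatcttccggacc

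With every droplet thinned to 1000 UMIs, so that depth was equal, neutrophil droplets held the lowest level of these genes per UMI of all genes and plasmacytoid droplets the highest. The summed level was 13286 CPM in Main1 and 13656 CPM in Main2 for neutrophils, and 26571 and 28667 CPM for plasmacytoid droplets. At full depth, 1 gene, Cox6a2, gave 91 and 111 of the 1590 and 1864 UMIs of these genes in plasmacytoid droplets. Their place above NK, macrophage and monocyte droplets rests in part on that gene. Follicular B droplets, the reference class, had 19390 and 19819 CPM. Marginal zone B droplets (18993 and 20711 CPM) overlapped them. Dendritic droplets (20500 and 20603 CPM) lay above both follicular B values but within the marginal zone B range. CD4 T (21470 and 23922 CPM) and CD8 T droplets (22857 and 22263 CPM) came next and overlapped each other. NK (24486 and 26174 CPM), macrophage (24219 and 26340 CPM) and monocyte droplets (24881 and 26153 CPM) overlapped fully among themselves and lay above every B and T value. Erythroid droplets spanned 17857 to 23597 CPM and could not be placed. No test was made of these sums. The order depended on the total used. When haemoglobin, immunoglobulin, S100a8, S100a9 and ribosomal protein genes were left out of the total, neutrophils stayed lowest (20683 and 20574 CPM), but erythroid (37625 and 44480 CPM), CD8 T (39082 and 36477 CPM) and plasmacytoid droplets (35483 and 38506 CPM) then overlapped at the top. NK (31751 and 33583 CPM), macrophage (31177 and 35821 CPM) and monocyte droplets (32755 and 35041 CPM) then overlapped marginal zone B (31923 and 34682 CPM) and CD4 T droplets (33105 and 36924 CPM). Against follicular B (29520 and 30480 CPM), dendritic droplets turned to lower (27799 and 27418 CPM) and marginal zone B droplets no longer overlapped it.

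**Figure D1:**
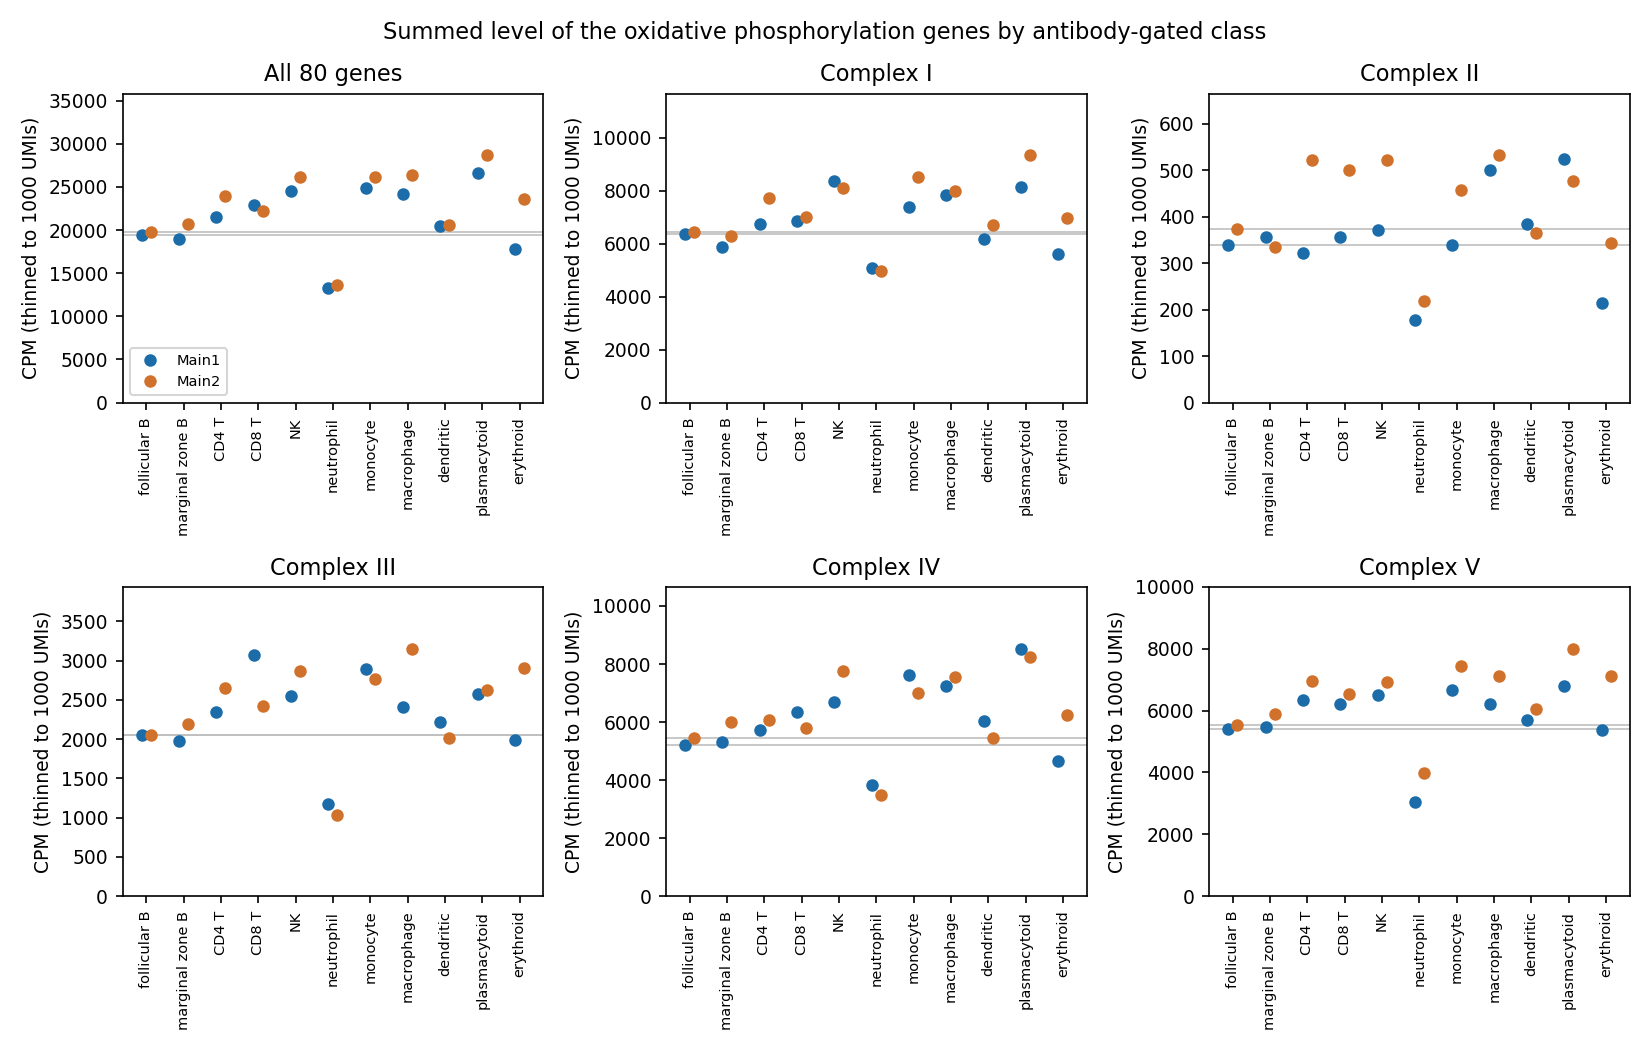
Summed CPM of all 80 genes and of each complex in 11 antibody-gated classes after thinning droplets to 1000 UMIs, with 1 point per library (Main1, Main2) and grey lines at the follicular B values. Neutrophils lie below follicular B in every panel (13286 and 13656 CPM for all genes), and plasmacytoid droplets lie above it in every panel.

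Within the follicular B gate the level showed no rise with droplet depth. Across its 4 depth quartiles, the thinned level stayed between 19009 and 20193 CPM over both libraries. Marginal zone B droplets had 17878 CPM in the shallowest and 18909 CPM in the deepest quartile of Main1, and 20139 and 22102 CPM in Main2. For CD4 T droplets these values were 22200 and 22235 CPM in Main1 and 24806 and 23595 CPM in Main2. Per thinned droplet, the median number of UMIs from these genes was 19 and 20 in follicular B, 13 in neutrophils of both libraries and 26 and 29 in plasmacytoid droplets. Erythroid droplets were the most spread, with a 10th to 90th percentile of 0 to 30.4 UMIs in Main1 and 2.0 to 42.4 in Main2.

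The complexes were then compared by their share of the UMIs of these genes. In follicular B droplets at full depth, complex I gave 32.5% and 32.8% of the UMIs of these genes, complex II 1.85% and 1.91%, complex III 10.6% in both libraries, complex IV 26.8% in both and complex V 28.2% and 27.9%. Shares are of UMIs and free of any scaling between classes. Neutrophils had the highest share of complex I (36.4% and 34.7%) and the lowest of complex III (9.19% and 9.29%). Plasmacytoid droplets had the highest share of complex IV, at 30.7% and 30.5%. That rank rests on 1 gene: Cox6a2 gave 91 and 111 of their 488 and 568 complex IV UMIs. Erythroid droplets had the highest share of complex V, at 31.5% and 32.3%. Against follicular B in the same library, the thinned level in neutrophils was 0.797 and 0.774 times for complex I but 0.573 and 0.504 times for complex III and 0.560 and 0.718 times for complex V. In monocytes complex III stood at 1.41 and 1.35 times and complex IV at 1.46 and 1.28 times the follicular B level, and complex I at 1.16 and 1.32 times.

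The UMIs were spread unevenly over the members. Cox4i1, the common isoform of subunit 4 of cytochrome c oxidase, had the most (17599 UMIs, in 81.5% of droplets), and Cox7a1 the fewest (57 UMIs). In all 10 classes Uqcrh, the hinge protein of complex III, gave the most UMIs of its complex, and in all 10 Sdhb, the iron-sulphur subunit, the most of complex II. Cox4i1 led complex IV in 8 classes, with 885 and 920 CPM in follicular B and 1287 and 1324 CPM in monocytes; Cox8a led in NK and neutrophil droplets. Ndufa4, first described in complex I and since placed with complex IV, led the Nduf genes in 7 of the 10. Cox4i2, Cox8b and Ndufa4l2, known tissue forms of these subunits, were not analysed here.

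Each member was then tested in each class against follicular B with edgeR's quasi-likelihood test over all genes with 50 or more UMIs, which kept 77 of the 80. All of these comparisons share the follicular B droplets, so a member called in several of them is not independent evidence. In marginal zone B cells, which sit at the blood-facing edge of the follicles, 0 of 77 members passed (3.95% of all genes did, in either direction); 7 had an unadjusted p under 0.05, while DESeq2 called 4 and a fit with follicular B alone 13, all of them higher. The median log2 fold was 0.12, beside −0.04 for all genes.

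**Figure D2:**
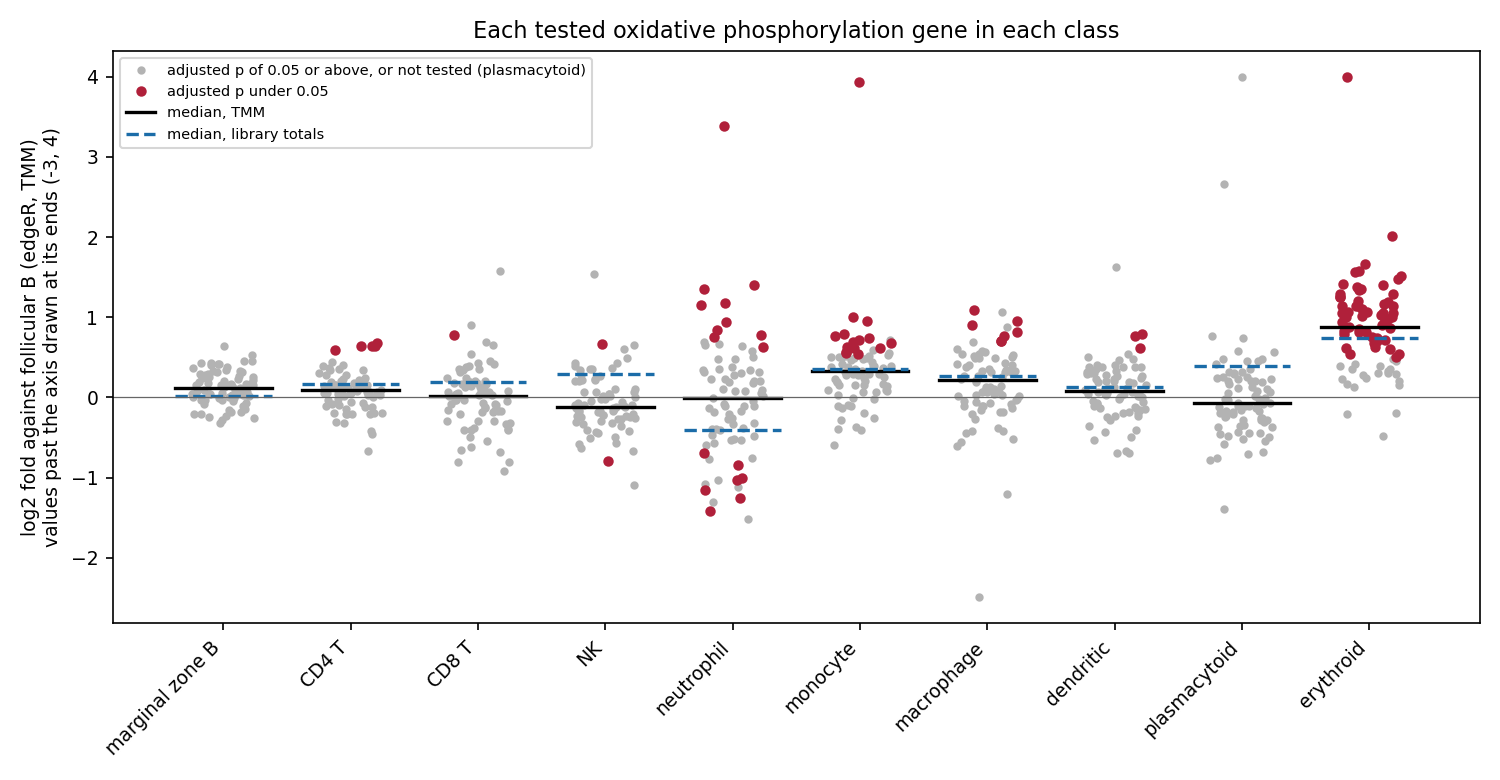
Log2 fold of each tested gene against follicular B (edgeR with TMM scaling), 1 point per gene and class, red where the adjusted p is under 0.05 (plasmacytoid points carry no test); lines mark the median with TMM and with library totals. Most erythroid points are red (56 of 77) and all of those lie above 0, while the 2 medians fall on opposite sides of 0 for NK and plasmacytoid droplets. Cox6b2 is drawn red in the erythroid, monocyte and neutrophil gates. It passed the filter on counts only through the erythroid gate and is read without a test.

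T cells. In CD4 T droplets 5 of 77 members rose and 0 fell, beside 6.78% and 7.23% of all genes. Plasma cell markers stood at 157 CPM in Main1 and 6216 CPM in Main2 of this gate, and their part was not tested. Ndufa13, a complex I subunit also known as GRIM-19, had 454 and 425 CPM in CD4 T and 245 and 278 CPM in follicular B (log2 fold 0.68 ± 0.20 SE, edgeR adjusted p = 0.0110). Atp5h, subunit d of the ATP synthase stalk, had 526 and 525 CPM against 332 and 330 CPM (0.59 ± 0.20, edgeR adjusted p = 0.0312). The other 3 were Cox7b, Ndufv3 and Atp5j2, with log2 folds of 0.64 each. The CD4 T values did not overlap the follicular B values for any of the 5. In CD8 T droplets Atp5h alone passed (1 of 77 higher and 0 lower, beside 2.67% and 3.87% of all genes), at 570 and 701 CPM (0.77 ± 0.23, edgeR adjusted p = 0.0220). It missed the threshold when droplets were thinned or restricted to 1200 to 3000 UMIs, and without the filter on low counts. Between CD44-high and CD44-low CD4 T droplets, a split that separates activated or memory cells from naive ones, 0 of 69 members passed. Of the 1326 genes tested there 9.43% did. In edgeR 6 members had an unadjusted p under 0.05, and DESeq2 also called 0. Plasma cell markers stood at 167 and 11992 CPM in CD44-high and 153 and 290 CPM in CD44-low droplets. Erythroid markers stood at 209 and 166 CPM against 25175 and 290 CPM, and the part of either was not tested.

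NK cells. At the member level, 1 gene rose and 1 fell in NK droplets (3.85% and 5.41% of all genes). Cox5b, a zinc-binding subunit of complex IV, had 652 and 641 CPM against 290 and 327 CPM in follicular B (log2 fold 0.66 ± 0.23, edgeR adjusted p = 0.0487). Cox7a2l, which helps to join complexes III and IV into supercomplexes, had 343 and 553 CPM against 608 and 598 CPM (−0.79 ± 0.24, edgeR adjusted p = 0.0221). Neither gene overlapped between the classes. NK droplets of Main1 held 2.94% haemoglobin UMIs, of which 1 droplet carried 99.1%, and without droplets over 1% haemoglobin 1 member again rose and 1 fell. In all 1 call was left with thinning to 1000 UMIs, droplets of 1200 to 3000 UMIs, gates on the antibody scale within each droplet, no filter on low counts, or totals without the abundant genes named above. Without the library block 0 were left, and DESeq2 called 8. The direction of the whole group depended on scaling here: the median member stood at −0.12 with TMM, beside −0.27 for all genes, and at 0.29 with library totals, beside 0.12 for all genes. With library totals 9 members rose and 0 fell.

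Neutrophils. Individual members moved both ways in neutrophil droplets with TMM scaling although the sum was low: 10 rose and 7 fell, beside 8.85% and 11.8% of all genes. Of the 10, 6 belong to complex I, and with droplets thinned to 1000 UMIs 0 members rose. Ndufb8, an accessory subunit of the membrane arm, had 343 and 333 CPM in neutrophils and 165 and 172 CPM in follicular B (log2 fold 1.41 ± 0.25, edgeR adjusted p = 4.9e-06). Ndufv3, of the NADH-oxidising module, had 268 and 298 CPM against 147 and 148 CPM (1.35 ± 0.26), and Ndufb7 439 and 420 CPM against 257 and 245 CPM (1.18 ± 0.24). Ndufb9 stood at 182 and 254 CPM against 162 and 145 CPM. Within the Cox7a family, Cox7a2 rose, from 307 and 331 CPM to 396 and 429 CPM (0.78 ± 0.23, edgeR adjusted p = 0.00978), while Cox7a2l fell from 608 and 598 CPM to 235 and 210 CPM (−1.03 ± 0.26, edgeR adjusted p = 0.00161). The share within the family needs no scaling between classes: Cox7a2l gave 37.3% and 32.4% of Cox7a UMIs in neutrophils and 66.2% and 64.3% in follicular B. In the erythroid gate its share was 42.9% and 37.0%.

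Among the members that fell, 3 belong to ATP synthase. Atp5g1, encoding the membrane ring subunit c, had 53.5 and 123 CPM in neutrophils and 286 and 281 CPM in follicular B (log2 fold −1.25 ± 0.34, edgeR adjusted p = 0.00323). Its paralog Atp5g2, which encodes the same mature protein, had 150 and 166 CPM against 338 and 413 CPM (−0.84 ± 0.28), and Atp5d, subunit delta, 128 and 114 CPM against 327 and 315 CPM (−1.01 ± 0.31). Atp5g3, the remaining paralog of subunit c, did not pass in neutrophils. Complex II was split: Sdha, the flavoprotein, had 10.7 and 52.5 CPM against 125 and 114 CPM (−1.42 ± 0.51, edgeR adjusted p = 0.0372), while Sdhd, a membrane anchor, had 85.6 and 87.6 CPM against 49.8 and 52.2 CPM (1.16 ± 0.43, edgeR adjusted p = 0.0412). Cox6b2, counted among the 10 that rose but read without a test for the reason given below, had 3 UMIs in 3 of 60 droplets. Monocyte markers stood at 21173 and 19778 CPM in these droplets, and their part was not tested. The balance of calls moved with the scaling: library totals without TMM gave 3 higher and 22 lower, thinning to 1000 UMIs 0 higher and 12 lower, and DESeq2 22 higher and 1 lower. The median member stood at 0.00 with TMM, beside −0.73 for all genes, and at −0.41 with library totals, beside −1.12 for all genes.

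Monocytes and macrophages. Monocyte droplets had 15 of 77 members higher and 0 lower, beside 11.5% and 8.70% of all genes. Of the 15, 5 belong to complex V, 4 to complex I, 3 to complex III and 3 to complex IV. Those of complex IV include Cox6b2, which is read without a test for the reason given below. Ndufb8 had 339 and 349 CPM (log2 fold 1.0 ± 0.22, edgeR adjusted p = 0.000177). Atp5c1, the central stalk subunit gamma, had 454 and 521 CPM against 254 and 240 CPM (0.95 ± 0.21), Uqcrfs1, the Rieske iron-sulphur protein, 310 and 306 CPM against 166 and 183 CPM (0.79 ± 0.21), and Atp5l, subunit g, 1034 and 1090 CPM against 606 and 617 CPM (0.77 ± 0.21). Both monocyte libraries lay above both follicular B libraries for each of these. The median member was 0.32 higher with TMM and 0.36 with library totals, beside −0.17 and −0.14 for all genes, and for 53 of 77 members both libraries lay above both of follicular B. With droplets thinned to 1000 UMIs 4 members passed, and 7 among droplets of 1200 to 3000 UMIs. Plasma cell markers stood at 10690 and 3977 CPM in the monocyte gate against 698 and 1750 CPM in follicular B, and NK markers at 1655 and 3059 CPM against 109 and 57.0 CPM; their part was not tested.

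**Figure D3:**
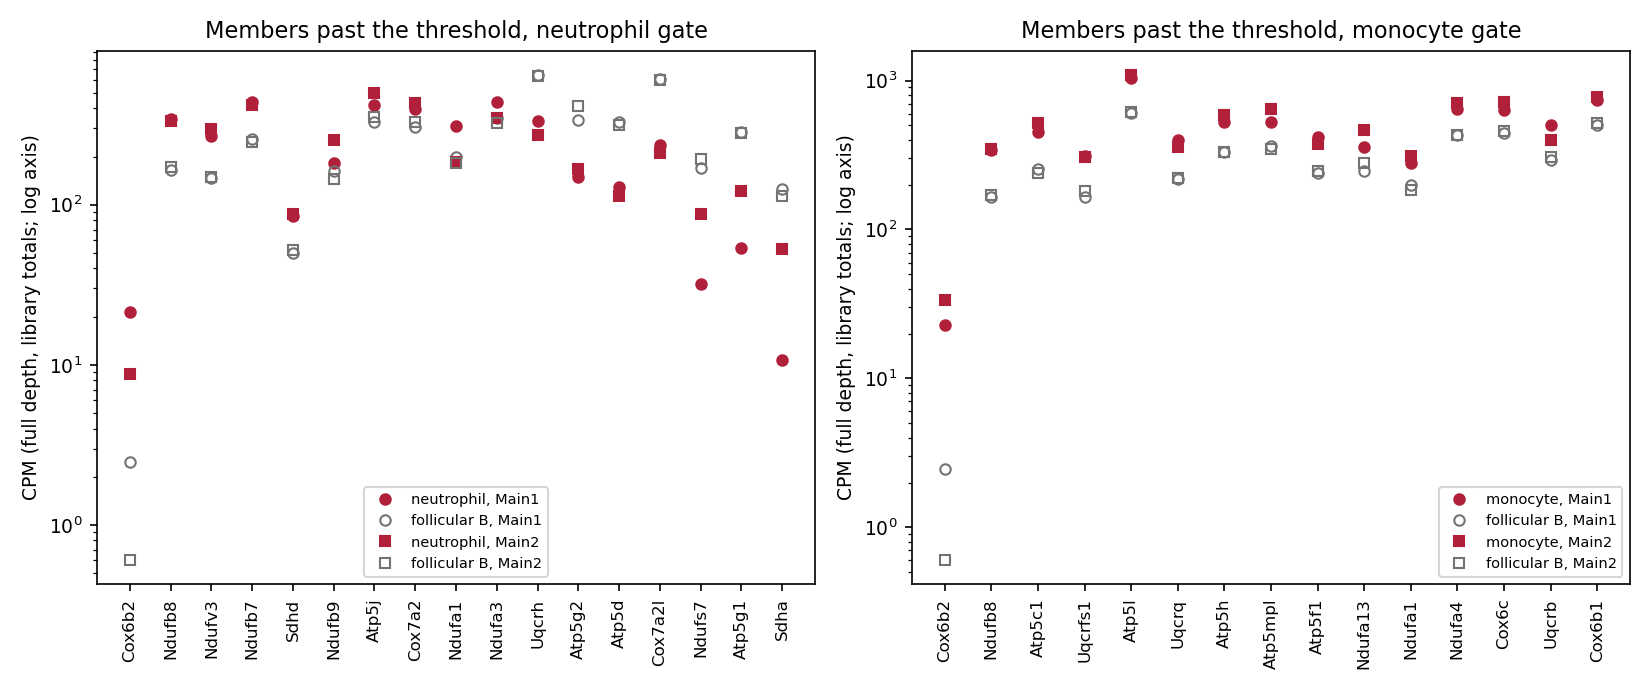
CPM at full depth (log axis) of each member past the threshold in neutrophil (left) and monocyte droplets (right), with filled marks for the gate and open marks for follicular B in Main1 and Main2. Monocyte marks lie above follicular B for all 15 genes, whereas neutrophil marks cross from above (Ndufb8, 343 and 333 CPM) to below (Cox7a2l, 235 and 210 CPM). Cox6b2 is drawn in both panels but is read without a test.

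In macrophage droplets 7 members rose and 0 fell, beside 8.02% and 6.58% of all genes. Cox5a, which binds beside Cox5b on the matrix side of complex IV, had 752 and 501 CPM against 276 and 266 CPM (log2 fold 1.09 ± 0.22, edgeR adjusted p = 0.000119). Uqcr11, a small subunit of complex III, had 369 and 535 CPM against 233 and 220 CPM (0.95 ± 0.24), and its relatives Uqcrq and Uqcrb also passed. Ndufb8 stood at 384 and 297 CPM. Alternatives gave 3 to 22 calls, with 22 under DESeq2, and 5 in all once droplets with over 1% haemoglobin were left out. Macrophage droplets held 3.52% and 8.67% haemoglobin UMIs, of which 1 droplet in each library carried 91.5% and 54.2%. Monocyte markers stood at 9678 and 8465 CPM in these droplets against 538 and 451 CPM in follicular B, and their part was not tested.

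Dendritic cells. Conventional dendritic droplets had 3 members higher and 0 lower (8.35% and 7.02% of all genes). They were Ndufb8 (323 and 271 CPM, log2 fold 0.77 ± 0.22, edgeR adjusted p = 0.00971), Ndufc2 (184 and 215 CPM against 96.4 and 130 CPM, 0.79 ± 0.25) and Atp5f1 (393 and 376 CPM against 240 and 246 CPM, 0.62 ± 0.22). With thinning to 1000 UMIs 0 passed, and with droplets of 1200 to 3000 UMIs 0 rose and 2 fell.

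In plasmacytoid droplets most UMIs of complex IV subunit 6a came from another isoform. Cox6a2, known from heart and skeletal muscle (chromosome 7, 128205435 to 128206387, minus strand, GRCm38), had 1504 and 1688 CPM there and 3.07 and 1.21 CPM in follicular B. The log2 fold was 8.88 ± 0.35 (SE). Of its 310 UMIs in the whole data set, 202 (65.2%) lay in these 42 droplets, which are 0.592% of all droplets. It was found in 38 of the 42 droplets (90.5%), and in 0.468% of the droplets outside the gate, at median depths of 2806.5 and 1777 UMIs. The highest droplet gave 14 UMIs, or 6.93% of the UMIs in the gate. Marginal zone B, CD8 T, NK, neutrophil, macrophage and erythroid droplets gave 0 UMIs of it, which at 3 counts of a class total allows levels of up to 2.51 CPM (marginal zone B) to 20.2 CPM (NK), for counting error only. The 6 UMIs in the monocyte gate came from 1 droplet, as did the 5 in the dendritic gate.

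Cox6a2 made up 72.8% and 71.2% of the Cox6a UMIs in plasmacytoid droplets and 0.687% and 0.252% in follicular B. Cox6a1, the ubiquitous isoform (chromosome 5), was still present in 36 of the 42 plasmacytoid droplets. Over all 7097 droplets, 56 of the 71 with a Cox6a2 UMI (78.9%) also had one of Siglech, a lectin of plasmacytoid dendritic cells, against 0.342% of the other droplets. These droplets include those of the gate. Apart from Cox6a2, Uqcr11 had 479 and 578 CPM against 233 and 220 CPM in follicular B (log2 fold 0.77 ± 0.25), and Atp5b, the catalytic beta subunit, 298 and 441 CPM against 464 and 447 CPM (−0.75 ± 0.25). The direction of the median member depended on scaling, at −0.07 with TMM (−0.39 for all genes) and 0.39 with library totals (0.05 for all genes). Monocyte markers stood at 5967 and 10298 CPM in the gate, and their part was not tested.

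**Figure D4:**
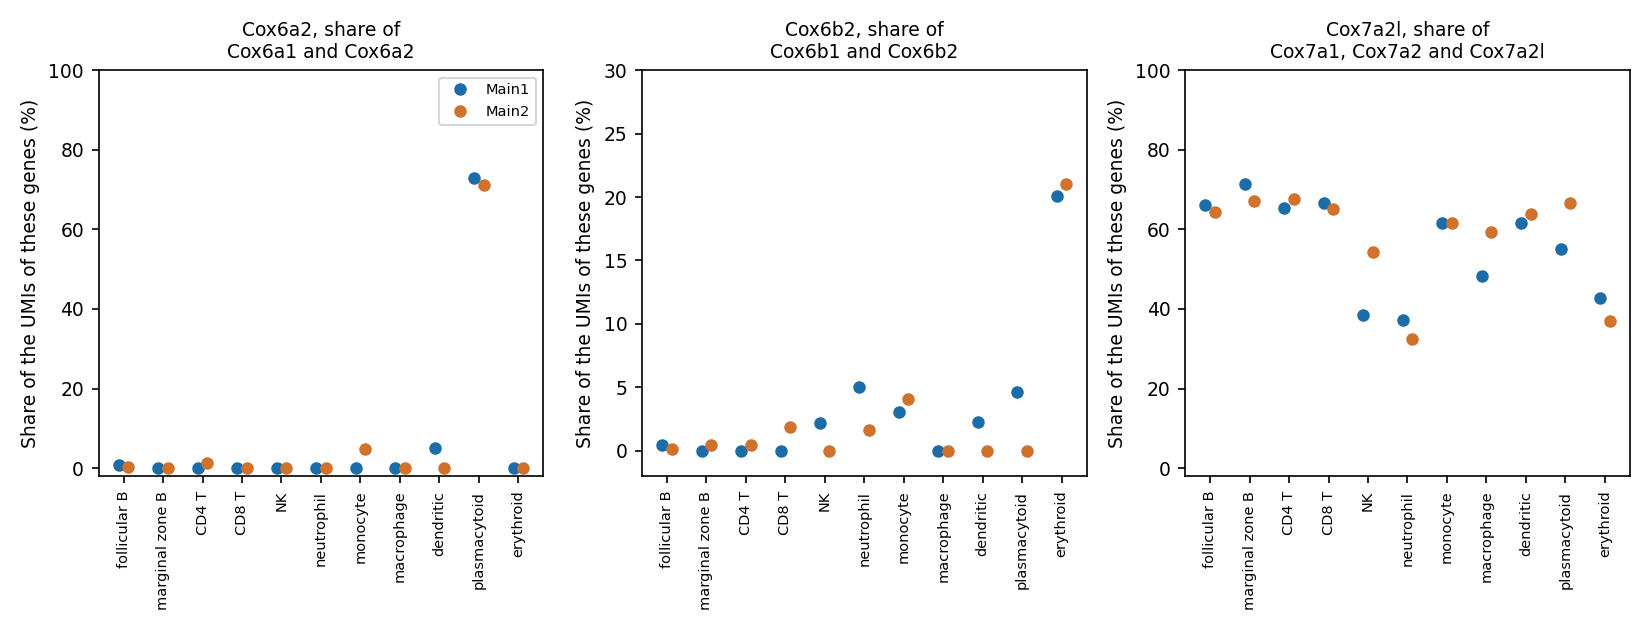
Share of UMIs within 3 isoform sets of complex IV in 11 classes, 1 point per library: Cox6a2 within Cox6a1 and Cox6a2, Cox6b2 within Cox6b1 and Cox6b2 (axis to 30%) and Cox7a2l within the Cox7a genes. Cox6a2 is the major form in plasmacytoid droplets (72.8% and 71.2%), and Cox6b2 reaches 20.1% and 21.0% in the erythroid gate.

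Cox6a2 was also called between CD71-positive and CD71-negative B droplets, where CD71 is the transferrin receptor of dividing and iron-demanding cells. It had 75.1 and 59.2 CPM in the positive and 12.8 and 13.7 CPM in the negative droplets (log2 fold 2.33 ± 0.21, edgeR adjusted p = 4.3e-09), and 17 of the 42 plasmacytoid droplets lie in the CD71-positive B gate, whose rule accepts B220 alone. All 42 lie in the B gate that this split divides. Plasmacytoid markers stood at 356 and 221 CPM in CD71-positive and 98.6 and 100 CPM in CD71-negative B droplets. The part of plasmacytoid droplets in the call was not tested. Erythroid markers stood at 13559 and 10269 CPM in CD71-positive and 349 and 350 CPM in CD71-negative B droplets, and cycling markers at 412 and 491 CPM against 60.2 and 72.5 CPM; their part in the calls was not tested. Besides it, 5 members rose and 0 fell (6 in all, beside 2.37% of all genes higher and 1.05% lower). Ndufc2 had 154 and 180 CPM against 96.9 and 136 CPM (0.53 ± 0.12, edgeR adjusted p = 0.00653), and Atp5g1 347 and 397 CPM against 296 and 291 CPM (0.35 ± 0.09, edgeR adjusted p = 0.0314). The remaining 3, Uqcr11, Atp5c1 and Atp5g2, had log2 folds of 0.31 to 0.38. Alternatives gave between 1 and 12 calls, and thinning to 1000 UMIs, DESeq2 or leaving out the library block left 1 each. In thinned droplets the summed level was 20336 and 21510 CPM in CD71-positive and 19545 and 20378 CPM in CD71-negative B droplets.

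Erythroid gate. At full depth 56 of 77 members rose and 0 fell in the erythroid gate, beside 21.1% and 19.2% of all genes. Calls covered 21 of 37 members in complex I, 4 of 4 in complex II, 7 of 8 in complex III, 10 of 12 in complex IV and 14 of 16 in complex V. The 56, and the 10 of complex IV, include Cox6b2, which is read without a test for the reason given below. The count changed with depth: 3 members rose and 1 fell with droplets thinned to 1000 UMIs, and 0 passed among droplets of 1200 to 3000 UMIs, where 4 had an unadjusted p under 0.05 in edgeR. The median member stood at 0.88 at full depth, at 0.18 after thinning and at −0.05 in the restricted range, beside −0.06, −0.32 and −0.24 for all genes.

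Apart from Cox6b2, described below without a test, the leading members came from complexes I, II and V. Sdhd, the anchor of complex II (chromosome 9), had 162 and 209 CPM against 49.8 and 52.2 CPM in follicular B (log2 fold 2.0 ± 0.23, edgeR adjusted p = 8.4e-12). After thinning it had 42.9 and 74.6 CPM, from 3 and 5 UMIs, against 43.1 and 53.2 CPM, so no difference was detectable at that depth. Atp5g1 had 633 and 999 CPM against 286 and 281 CPM (1.66 ± 0.20), and 300 and 552 CPM against 291 and 268 CPM after thinning. Atp5g3, whose promoter stretch is shown above, had 318 and 414 CPM against 144 and 139 CPM (1.52 ± 0.20), and 257 and 284 CPM against 129 and 138 CPM after thinning. Ndufb9 and Ndufc2 had log2 folds of 1.57 and 1.58. The other 3 genes of complex II were higher by 0.98 (Sdhc), 0.55 (Sdha) and 0.51 (Sdhb).

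The gate held droplets of very unlike depth. Of the 54 droplets called for both Ter119 and CD71, those below their median depth of 3094 UMIs had a median of 93.6% and 93.2% haemoglobin UMIs. Their member level was 6093 and 8710 CPM. Those at or above it had a median of 62.0% and 7.14% haemoglobin UMIs, and a member level of 29596 and 34257 CPM. The shallow set held 15 and 12 droplets and the deep set 12 and 15, in Main1 and Main2. When haemoglobin UMIs were taken out of the total, the values were 23384 and 21112 CPM of the remaining UMIs in the shallow droplets and 38737 and 38023 CPM in the deep ones. A sum over droplets gives the deep ones the most weight. Droplets called for CD71 alone had a thinned level of 21744 and 27324 CPM. They also held Cd3e, a T cell gene, at 374 and 166 CPM and Jchain, a plasma cell gene, at 7287 and 1359 CPM, and their part in the calls was not tested. Cycling markers stood at 1322 and 2463 CPM in the whole gate against 59.6 and 48.5 CPM in follicular B.

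**Figure D5:**
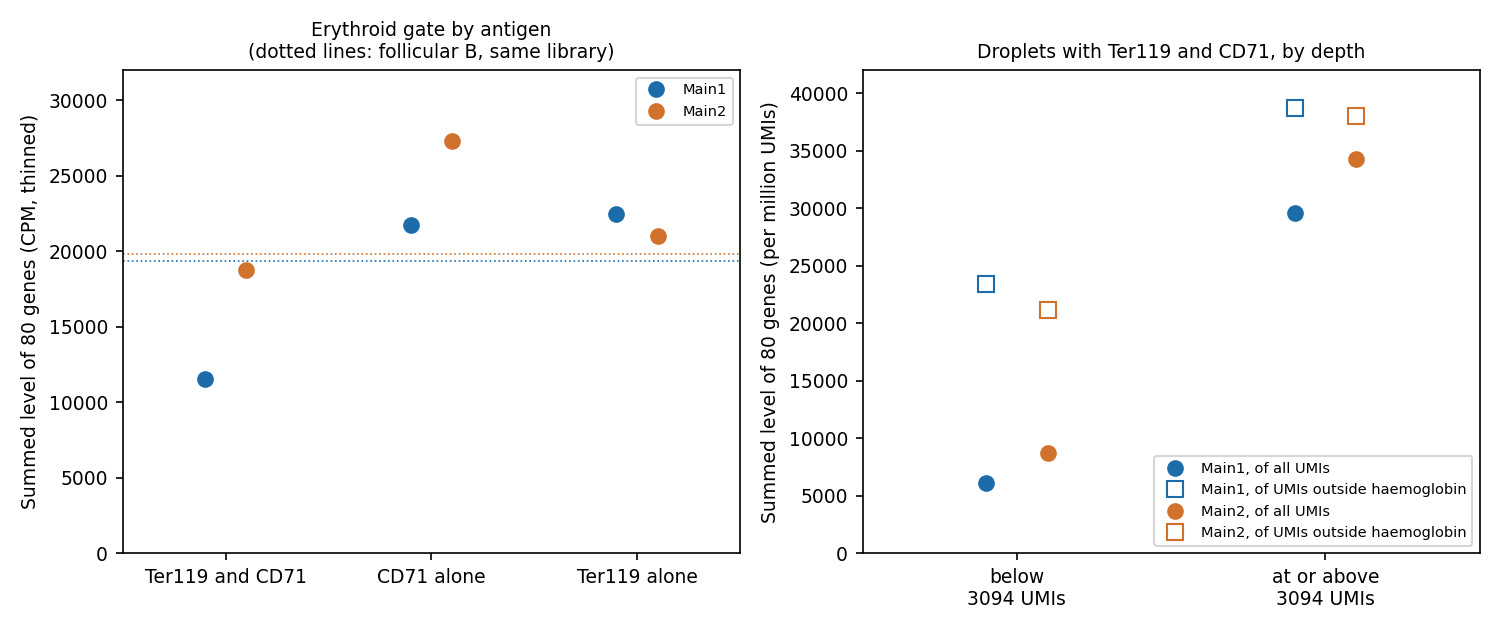
Left, thinned summed level of the 80 genes in the erythroid gate by antigen call, 1 point per library, with dotted lines at the follicular B level. Right, level in droplets called for both antigens below and above 3094 UMIs, as CPM of all UMIs (filled) and of UMIs outside haemoglobin (open). Deep droplets lie at 29596 and 34257 CPM and shallow ones at 6093 and 8710 CPM.

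Cox6b2, known as the testis form of complex IV subunit 6b (chromosome 7, 4751792 to 4753094, minus strand, GRCm38), had 149 and 216 CPM in the erythroid gate and 2.46 and 0.607 CPM in follicular B, and made up 20.1% and 21.0% of the Cox6b UMIs against 0.488% and 0.116%. Of its 249 UMIs, 175 (70.3%) lay in 26 of the 137 erythroid droplets, with at most 15 in 1 droplet. It reached the minimum of 50 UMIs only through this gate, so its values are given without a test, although it is counted among the 56 members. Both antigen sets carried it, with 78 UMIs in droplets called for Ter119 and CD71 and 97 in those called for CD71 alone. After thinning 3 and 6 UMIs of it were left (42.9 and 89.6 CPM), against 3 and 0 UMIs in the many more follicular B droplets (3.40 and 0 CPM). Cox6b1, the common form, remained the major one in every class. In monocytes, where it is counted among the 15, Cox6b2 had 23.0 and 33.5 CPM, from 11 UMIs in 10 droplets.

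Neighbouring parts of mitochondrial metabolism were counted from lists of related genes. In the erythroid gate 21.1% of all genes rose and 19.2% fell at full depth. All 13 tested electron and ADP carriers rose there. So did 13 of 17 citric acid cycle genes and 50 of 77 mitochondrial ribosomal protein genes. After thinning, the summed citric acid cycle level was 0.931 and 1.26 times follicular B in the same library. Mitochondrial ribosomal proteins stood at 0.937 and 1.23 times. For both lists the libraries thus lay on opposite sides of follicular B. Carriers stayed above it, at 1.09 and 1.42 times. Assembly factors, with 9 of 42 higher and 2 lower, were near the share of all genes higher. Glycolysis genes went both ways there, with 6 higher and 5 lower of 17 and a median of −0.49. Vdac1, the outer membrane channel, was higher by 2.36 on the log2 scale and Idh3a, a subunit of isocitrate dehydrogenase, by 2.33; these calls share the depth weighting of the erythroid sums. In neutrophils 11 of 17 glycolysis genes rose and 0 fell (8.85% and 11.8% of all genes), with a list median of 1.76 against −0.73 for all genes. Pkm, pyruvate kinase, was higher by 2.41 and Gapdh by 1.85. Mitochondrial ribosomal protein genes, with 10 of 77 lower and 2 higher, were near the 11.8% of all genes lower, and the citric acid cycle had 0 higher and 1 lower of 17. In monocytes, where 11.5% of all genes rose, 7 of 17 glycolysis genes did and 4 of 13 carriers, among them Ucp2, an inner membrane carrier (1.22), and Slc25a5, an ADP and ATP exchanger (1.0). CD4 T droplets had 6 of 17 glycolysis genes higher (6.78% of all genes), Ldha among them (1.31).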

How the data were processed

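The deposited tables held whole-number counts per droplet, UMIs per gene and tags per antibody, with no normalization by the authors recorded. Reads were processed with Cell Ranger 3.0.2 and bcl2fastq on the mm10 build, per the submitters' processing notes. Every listed gene had UMIs in at least 15 droplets. Droplet prefixes m1 and m2 were read as Main1 and Main2. Antibody tags were put on a centred log-ratio across droplets and split by a mixture of 2 Gaussians (scikit-learn 1.9.0). UMIs were summed per gate and library. Sums were tested with edgeR 4.0.16 (quasi-likelihood, TMM, library as a block, which pairs gates because both come from the same droplet libraries; genes with 50 or more UMIs; Benjamini-Hochberg 0.05 over all genes). One fit held the 10 classes (9 residual degrees of freedom), and the CD71 and CD44 splits were fitted alone (1 residual degree of freedom). P-values measure only how far the differences between gates varied over these libraries, which may be technical. That spread was pooled over the classes of a fit and drawn towards a value shared across genes. The shared value carried 62.0 degrees of freedom in the fit of 10 classes, and 27.3 and 28.2 in the CD71 and CD44 splits. The p-values therefore rest mostly on it. CPM in the text are UMIs per 1000000 of the gate's total. DESeq2 1.42.0 was an alternative. The fit was also run on simulated data, but the outcome is not reported here and nothing is drawn from it. Members and lists were chosen with earlier results of these data known. Named members are the 6 with the lowest adjusted p in each direction per comparison, the member with most UMIs of each complex, isoform sets and the Sdh genes, and at most 3 called genes of another list. Of 11713 gene identifiers 11682 matched a symbol. Droplets with more than 1 cell were not removed.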

Additional observations from a re-analysis of the deposited data

How the results depend on the processing

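For the main results, 91 of the recomputed numbers of members called and of complex levels stayed within 1.5 times the value given and 46 did not. Of the other recomputed numbers, 94 were counted as the same and 112 as moved. The 46 are as follows, each as the total in both directions. DESeq2 called 4 in marginal zone B, 2 in CD8 T, 8 in NK, 22 in macrophages, 7 in dendritic and 1 in CD71-positive B droplets. RLE scaling called 1 in marginal zone B, 2 in CD8 T, 15 in macrophages, 5 in dendritic and 11 in CD71-positive B droplets. Library totals without TMM, added after seeing the data, called 2 in CD8 T, 9 in NK and 12 in CD71-positive B droplets. Thinning to 1000 UMIs called 0 in CD8 T, 1 in NK, 4 in monocytes, 0 in dendritic, 4 in erythroid and 1 in CD71-positive B droplets; with library totals as well (also added later) it called 9 in NK, 0 in dendritic, 5 in erythroid and 1 in CD71-positive B droplets. Droplets of 1200 to 3000 UMIs gave 0 in CD8 T, 1 in NK, 7 in monocytes, 3 in macrophages, 0 in erythroid and 1 in CD71-positive B. A fit of each class with follicular B alone gave 13 in marginal zone B, 11 in CD4 T, 26 in monocytes and 11 in dendritic droplets. Gates on the antibody scale within each droplet gave 1 in NK, 11 in macrophages and 11 in CD71-positive B. No filter on low counts gave 0 in CD8 T, 1 in NK and 9 in monocytes. Totals without haemoglobin, immunoglobulin, S100a8, S100a9 and ribosomal protein genes gave 1 in NK and 10 in CD71-positive B. With no replicate block (libraries not paired) the counts were 3 in CD4 T, 0 in NK, 9 in monocytes and 1 in CD71-positive B. The cause of each shift was not tested. In neutrophils the total stayed within 1.5 times but its direction did not, as given with the result.

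Of 45 pairs of class and complex, 27 lay above follicular B in both libraries after thinning and 7 below. Other depths, gates and totals gave 27 to 33 above, and the single libraries 30 and 35. The order of the classes changed with the totals, as given with the levels.

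Limits: 2 libraries per gate, with 14 and 38 droplets in the CD8 T gate, and date codes that the tables do not separate. Levels near 1 UMI (Cox7a1 and Atp5s) cannot be ordered at this depth.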
